A study of Mus musculus with 10 samples.

Results

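The collagen genes of 4 sorted cell populations of the adult mouse prostate are described here. A gene was counted as a collagen gene where its symbol consists of Col, a number, the letter a and a number, and Col17a1, the transmembrane collagen of hemidesmosomes, was left out. The rule found 43 genes among 24601 genes with a value. They were grouped as 11 fibrillar collagens, 8 basement membrane collagens, 9 FACITs (fibril-associated collagens with interrupted triple helices) and 15 others.

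The study compared RNA sequencing libraries of cells sorted with antibodies from dissociated prostates of C57BL/6 mice aged 8 to 12 weeks, and all groups share that strain and age, with no treatment or engineered allele named in the labels. Basal epithelial cells were sorted as Lin-/CD24low/CD49fhigh (2 libraries), luminal epithelial cells as Lin-/CD24high/CD49flow and split into Sca-1- (3 libraries) and Sca-1+ (3 libraries), and stromal cells as Lin-/CD24-/CD49f- (2 libraries), Lin- standing for cells without lineage antigens that the labels do not list. Whether the libraries of a gate came from separate mice is not stated in the labels, so p-values measure only the spread between these libraries, which may be technical. The labels also describe growth of dissociated cells on plates coated with collagen I in medium with serum and dihydrotestosterone, and do not say whether the sequenced cells had been through it.

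Collagens are secreted or membrane proteins built of trimers of alpha chains, each chain with a long repeat in which glycine recurs at a fixed spacing, and most trimers mix the products of several genes. Fibrillar collagens form the banded fibrils of connective tissue and are made mainly by fibroblasts. Collagen IV forms the sheet of basement membranes, on which basal epithelial cells rest, and FACITs sit on the surface of fibrils. In the prostate, the gland's epithelial layers are set apart by a basement membrane from a stroma of fibroblasts and smooth muscle.

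Values are FPKM, fragment counts scaled to transcript length and to the mapped fragments of the library, summed over the transcripts of a gene. From the spacing of low values the libraries held about 20.2 to 27.2 M (mega) fragments, and 9775 to 11283 genes reached 1 FPKM in a library. Krt5, the basal keratin, stood at 382 and 535 FPKM in basal libraries and at 1.31 to 20.0 FPKM in the 8 others. Pdgfra, the fibroblast receptor for platelet-derived growth factor, stood at 77.4 and 114 FPKM in stromal libraries, 89.1, 49.6 and 4.48 in the Sca-1+ luminal replicates 1, 2 and 3, 0.629, 0.146 and 1.04 in Sca-1- luminal libraries and 1.65 and 3.31 in basal libraries. Over 12 fibroblast genes other than collagens, of which 11 reached 1 FPKM in each stromal and Sca-1+ luminal library and Pi16 stayed under 0.1 FPKM in all 10, the summed level was 14708 and 12799 FPKM in stromal libraries and 14870, 6169 and 1150 in Sca-1+ luminal replicates 1, 2 and 3. It was 145.6 to 254 FPKM in Sca-1- luminal and 786 to 938 in basal libraries. Gsn and Dcn made up most of each sum. They stood at 245 and 655 FPKM in basal replicate 1 and at 787 and 233 in Sca-1+ luminal replicate 3. The 3 Sca-1+ luminal libraries therefore stood apart from one another, and results that rest on them are given also with replicate 3, the lowest in fibroblast genes, as the sole library of the gate. Leukocyte genes summed to 4.68 to 24.0 FPKM in the 10 libraries, mostly from the macrophage genes Cd68 (0.982 to 18.3) and Lyz2 (0.842 to 14.2), and Ptprc, the pan-leukocyte antigen, was at 0.0197 to 0.338 FPKM.

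Collagen RNA was most abundant in stromal libraries and least abundant in Sca-1- luminal libraries. The 43 genes summed to 2326 and 2205 FPKM in stromal libraries, 2209, 1097 and 164.7 in Sca-1+ luminal replicates 1, 2 and 3, 572 and 663 in basal libraries, and 55.0, 45.3 and 73.6 in Sca-1- luminal libraries. The stromal libraries were above all basal and Sca-1- luminal libraries, and the Sca-1+ luminal libraries ran from a level between the stromal ones to one below the basal ones. As a share of the FPKM of all genes, the collagens made up 0.603% and 0.498% in stromal, 0.159% and 0.181% in basal, and 0.00732% to 0.0122% in Sca-1- luminal libraries. The share was 0.562%, 0.265% and 0.0380% in Sca-1+ luminal replicates 1, 2 and 3. The FPKM of all genes ran from 360131 in basal replicate 1 to 618563 in Sca-1- luminal replicate 2. In bulk libraries, fewer cells of a type and less RNA per cell cannot be told apart.

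The makeup of the collagen RNA also differed by gate. Fibrillar collagens held 59.0% and 54.2% of it in stromal and 53.1% to 59.9% in Sca-1+ luminal libraries, against 5.02% and 5.17% in basal libraries. Basement membrane collagens held 79.5% and 83.7% in basal libraries, 44.0% to 60.2% in Sca-1- luminal, 15.7% and 18.5% in stromal, and 14.5% to 21.7% in Sca-1+ luminal libraries. These shares did not overlap between the basal libraries and those of any other gate. In basal libraries 1 gene, Col18a1, held 59.6% and 65.2% of all collagen FPKM.

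**Figure D1:**
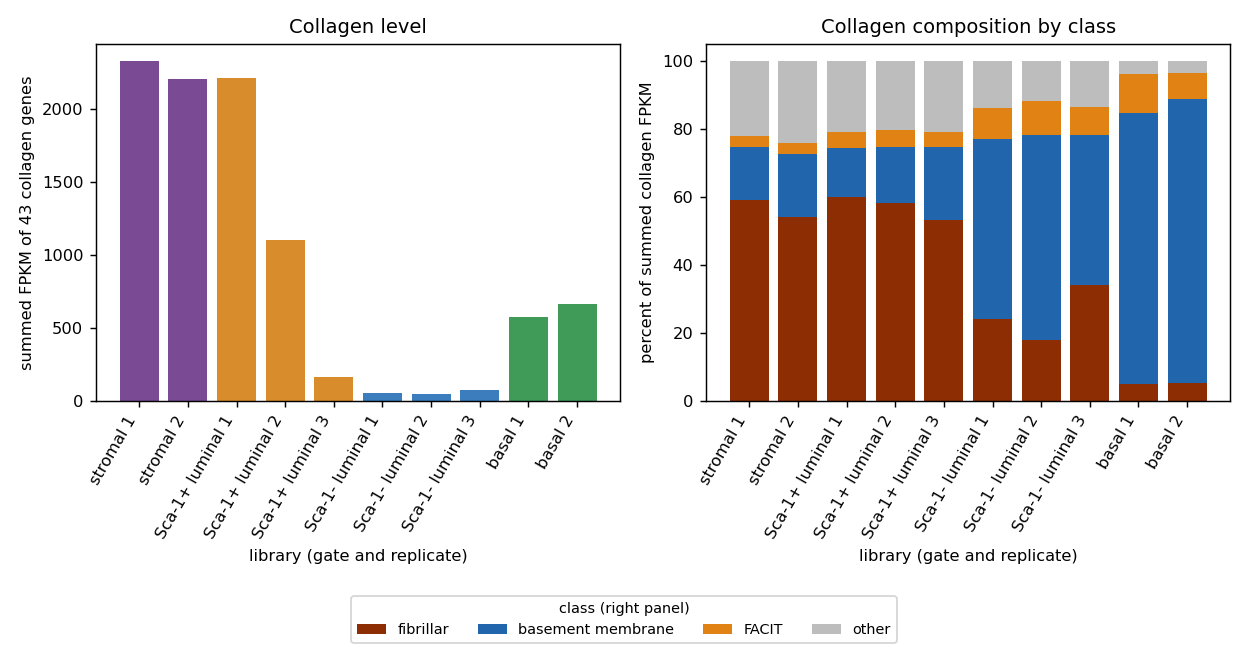
Left, bars give the summed FPKM of the 43 collagen genes in each of the 10 libraries; right, stacked bars give the percent of that sum held by each class. Basement membrane collagens (blue) hold 79.5% and 83.7% in the basal libraries, and the left bars fall from 2209 to 164.7 FPKM among the Sca-1+ luminal libraries.

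Of the 43 genes, 30 reached 1 FPKM in at least 2 libraries and were tested: 7 of 11 fibrillar, 8 of 8 basement membrane, 4 of 9 FACIT and 11 of 15 others. Of these 30, 15 had no Sca-1- luminal library at 1 FPKM and 10 no basal one. They passed only through gates where they were higher, so the counts below, those against Sca-1- luminal libraries above all, describe the 30 tested and in part follow from the filter. Each comparison used limma on log2(FPKM + 1) over the 12426 genes tested, with 1 mean per gate and a spread pooled over all 10 libraries, and calls were made at a p under 0.05 after Benjamini-Hochberg adjustment over those genes. Differences are therefore on the log2(FPKM + 1) scale, which understates the change of low genes. The highest mean was in stromal libraries for 25 of the 30 and the lowest in Sca-1- luminal libraries for 27. The same counts were not made over all genes.

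**Figure D2:**
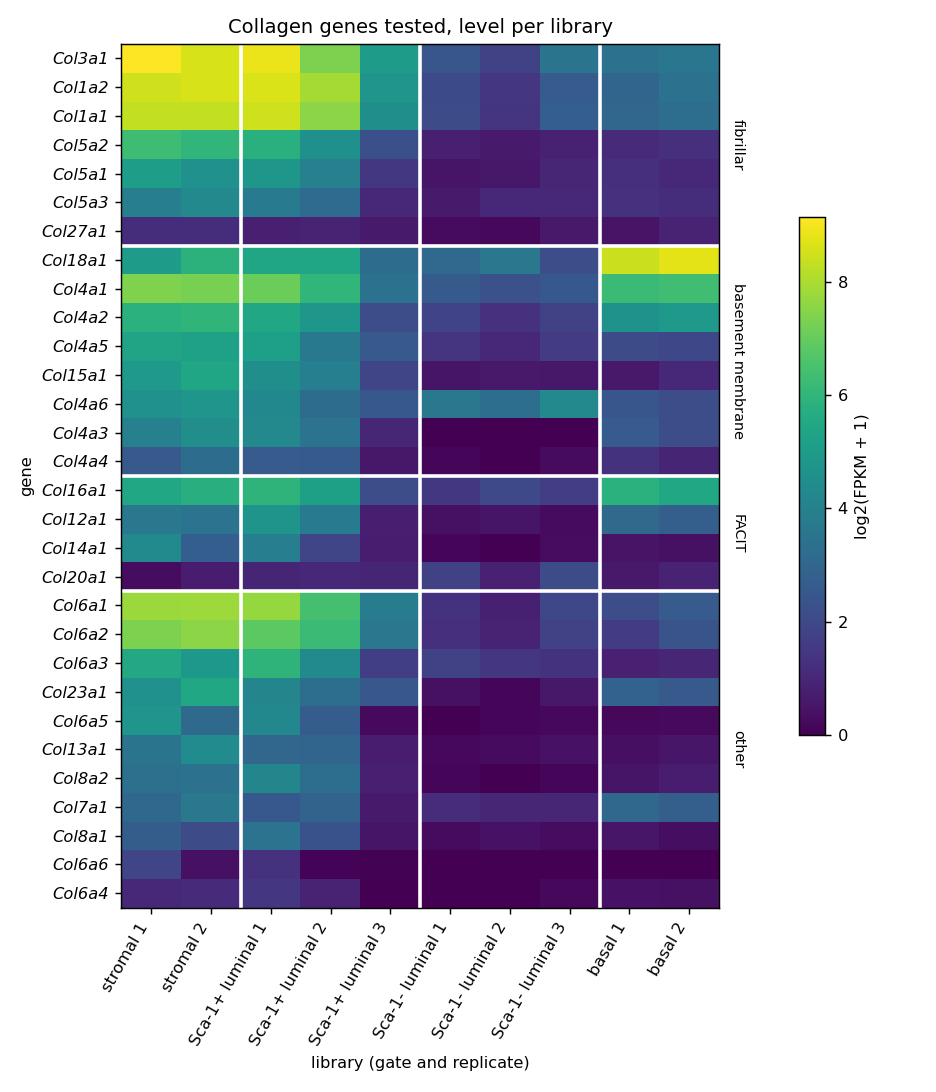
Each cell gives log2(FPKM + 1) of 1 of the 30 tested collagen genes (rows, by class) in 1 library (columns, by gate). Most rows are bright in stromal libraries and dark in Sca-1- luminal ones, Col18a1 is brightest in basal libraries, and all but 1 row is darkest in replicate 3 among the Sca-1+ luminal libraries.

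Between stromal and basal libraries, 17 of the 30 tested collagens were higher in stromal and 1, Col18a1, was higher in basal libraries. The whole table gave 22.4% of genes called, 13.4% higher and 9.04% lower in stromal libraries, and the median difference was 2.60 for the collagens and 0.02 for all genes. The higher genes were 6 of 7 fibrillar, 3 of 8 basement membrane, 1 of 4 FACIT and 7 of 11 other collagens. Of 11 tested fibroblast genes 9 were higher in stromal libraries too. Leaving out any 1 basal or stromal library, which left 1 in its gate, reduced the calls among the collagens and also among all genes. Only Col1a1, Col1a2, Col3a1, Col5a2, Col15a1, Col6a1 and Col6a2 kept the call in each of the 10 fits without 1 library.

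Against Sca-1- luminal libraries, 27 of the 30 tested were higher in stromal libraries and 1, Col20a1, was lower, where the whole table gave 52.6% called, 25.3% higher and 27.3% lower. The median difference was 3.76 for the collagens and -0.06 for all genes. The difference was 6.41 ± 0.88 (SE, limma adjusted p = 0.000412) for Col6a1, 6.50 ± 0.91 (0.000450) for Col1a2 and 4.87 ± 0.81 (0.00104) for Col4a1. Col4a6 and Col6a6 were not called, though Col6a6 was in 7 of its alternatives, and all 11 tested fibroblast genes were higher. Of the 28 calls, 18 held in each of the 10 fits without 1 library, and the count stayed between 20 and 30.

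**Figure D3:**
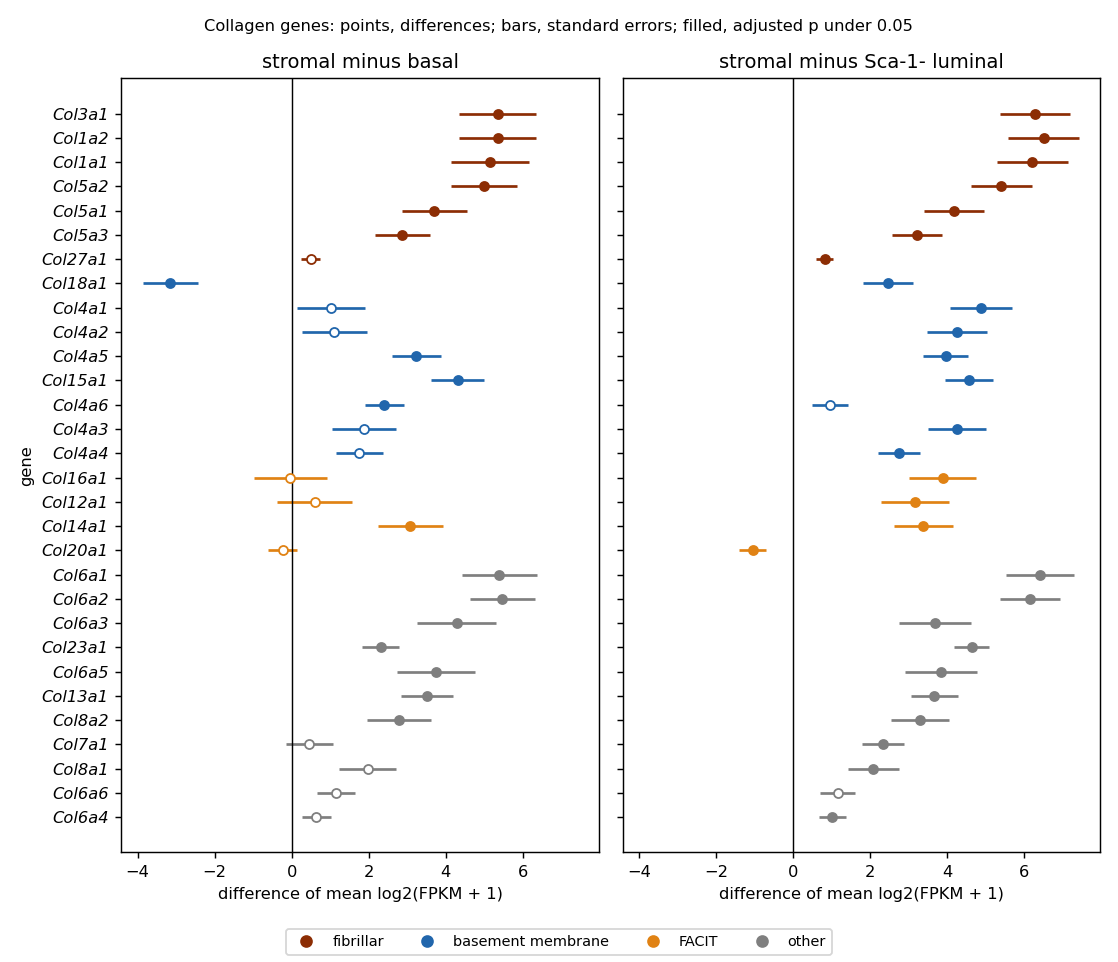
Points give the difference of mean log2(FPKM + 1), stromal minus basal (left) and stromal minus Sca-1- luminal (right), for the 30 tested collagens, bars give its standard error, and filled points have a limma adjusted p under 0.05. Col18a1 lies left of zero only in the comparison with basal libraries, and Col16a1 and Col12a1 lie near zero there and to the right against Sca-1- luminal libraries.

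Between basal and Sca-1- luminal libraries, 8 of the 30 tested were higher in basal libraries and 1, Col4a6, was lower. Of all genes, 46% were called, 20.1% higher and 25.9% lower in basal libraries, against 26.7% and 3.33% of the tested collagens, and these shares were not tested against each other. The higher genes were 4 of 8 basement membrane collagens (Col18a1, Col4a1, Col4a2 and Col4a3), 2 of 4 FACITs (Col16a1 and Col12a1), 2 of 11 others (Col23a1 and Col7a1) and 0 of 7 fibrillar collagens. Without Sca-1- luminal replicate 3 the 9 calls fell to 5. Of all genes, 2500 were higher and 3220 lower in the main fit, and 2067 and 2681 in that one. Leaving out either basal library, which left 1 in that gate, also reduced the calls of collagens and of all genes. Col16a1, Col18a1, Col23a1 and Col4a1 kept the call in all 10 fits without 1 library.

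Genes of collagens I and III had the highest collagen levels of the stromal and Sca-1+ luminal libraries. Col1a1 (chr11:94936224-94953042, mm10, plus strand) encodes the alpha1 chain of collagen I, the main fibril of connective tissue. It stood at 317 and 314 FPKM in stromal libraries, 359.7, 189.8 and 22.4 in Sca-1+ luminal libraries, 3.42, 1.67 and 5.68 in Sca-1- luminal libraries and 7.16 and 8.77 in basal libraries. The stromal values lay above every basal and Sca-1- luminal value, and among the Sca-1+ luminal libraries replicate 1 exceeded both stromal ones while replicate 3 lay far below them. The difference was 5.15 ± 1.01 (SE) between stromal and basal libraries (limma adjusted p = 0.00671) and 6.21 ± 0.92 between stromal and Sca-1- luminal libraries (limma adjusted p = 0.000606). Between basal and Sca-1- luminal libraries it was 1.06 ± 0.92 and not called (limma adjusted p = 0.383), although the 2 basal libraries lay above the 3 others, and it was called without Sca-1+ luminal replicate 3 (0.0428).

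Col1a2 (chr6:4504814-4541544, plus strand), whose chain is the partner of alpha1 in collagen I, followed the same order. Its level was 361 and 388 FPKM in stromal, 394, 238 and 26.3 in Sca-1+ luminal, 3.15, 1.72 and 5.30 in Sca-1- luminal and 6.82 and 9.78 in basal libraries. The ratio of Col1a1 to Col1a2 stayed between 0.797 and 1.08 in all 10 libraries, over a range of levels from 1.67 to 394 FPKM. Stromal exceeded basal libraries by 5.35 ± 1.00 (SE, limma adjusted p = 0.00539).

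The Col1a2 promoter is printed to stand for the fibrillar genes beside the basement membrane promoters below. Sequences come from RefSeq on GRCm38.p6, which is mm10, and run 5′ to 3′ on the gene's strand, most of each window lying before RefSeq's start site. Capitals mark GGGCGG, the GC box, and CCAAT, the CCAAT box, each searched on both strands, so that CCGCCC and ATTGG are their reverse complements. RefSeq held 37 such windows for 34 of the 43 genes. TATAAA, the TATA box, was searched on both strands too, and it can overlap its reverse complement TTTATA. Of all 32851 promoters 35.7% held GGGCGG, 37.4% CCAAT and 13.6% TATAAA, and of the 37 collagen windows 62.2%, 32.4% and 10.8% did. The window of Col1a2 holds 2 GC boxes and 2 CCAAT boxes. The transcript listed with all of the gene's FPKM starts at 4505697, after the window's end at 4505667, so its start is not printed.
Col1a2, chr6:4505368-4505667, plus strand: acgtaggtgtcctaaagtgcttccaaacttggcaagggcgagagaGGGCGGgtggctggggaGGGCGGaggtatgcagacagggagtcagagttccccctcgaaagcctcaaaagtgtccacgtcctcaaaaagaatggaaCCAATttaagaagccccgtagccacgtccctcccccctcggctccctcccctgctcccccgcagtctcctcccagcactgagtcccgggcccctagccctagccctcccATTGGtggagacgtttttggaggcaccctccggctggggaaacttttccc

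Collagen III is the fibril former of extensible tissue and co-assembles with collagen I. Its gene Col3a1 (chr1:45311538-45349706, plus strand) stood at 567 and 383 FPKM in stromal, 473, 162 and 31.4 in Sca-1+ luminal, 4.50, 2.47 and 10.4 in Sca-1- luminal and 9.96 and 10.9 in basal libraries. It was the highest collagen of 1 stromal and 2 Sca-1+ luminal libraries. Sca-1- luminal replicate 3, at 10.4 FPKM, reached the basal level, so those gates overlapped. The difference between stromal and basal libraries was 5.35 ± 1.00 (SE, limma adjusted p = 0.00542).

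The collagen V genes, whose trimers start and limit the growth of collagen I fibrils, lay lower but in the same order. Col5a2 stood at 78.6 and 64.3 FPKM in stromal, 54.9, 23.2 and 3.65 in Sca-1+ luminal, 0.736, 0.594 and 0.777 in Sca-1- luminal and 1.20 and 1.34 in basal libraries. Col5a1 stood at 34.1 and 23.7, 27.9, 14.8 and 1.82, 0.425, 0.521 and 0.994 and 1.42 and 1.09 FPKM in the same order of gates. Both had stromal libraries above all basal and Sca-1- luminal ones. For Col5a3 the values were 14.1 and 19.0 FPKM in stromal, 12.6, 8.20 and 1.04 in Sca-1+ luminal, 0.571, 1.02 and 1.04 in Sca-1- luminal and 1.45 and 1.29 in basal libraries. The stromal excess over basal libraries was 4.99 ± 0.86 (SE) for Col5a2 (limma adjusted p = 0.00384), 3.71 ± 0.84 for Col5a1 (0.0126) and 2.87 ± 0.71 for Col5a3 (0.0175). The calls of Col5a1 and Col5a3 were lost without any 1 of the 4 basal and stromal libraries, at limma adjusted p = 0.0560 to 0.0775 and 0.0661 to 0.105. Col27a1, the 1 other fibrillar gene tested, stayed between 0.152 and 1.28 FPKM over the 10 libraries. A 4503 nt transcript within it, at up to 2.25 FPKM, was given no gene by position and is not in these values. Col27a1 was not called between stromal and basal libraries (0.49 ± 0.24, limma adjusted p = 0.186), except when transcripts lying within a gene were counted (0.0204).

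The basement membrane collagens did not share 1 pattern. Col18a1 was far higher in basal libraries, Col4a1 and Col4a2 were high in both basal and stromal libraries, Col15a1 followed the fibrillar order, and Col4a6 was the 1 gene of the class not called between Sca-1+ and Sca-1- luminal libraries.

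**Figure D4:**
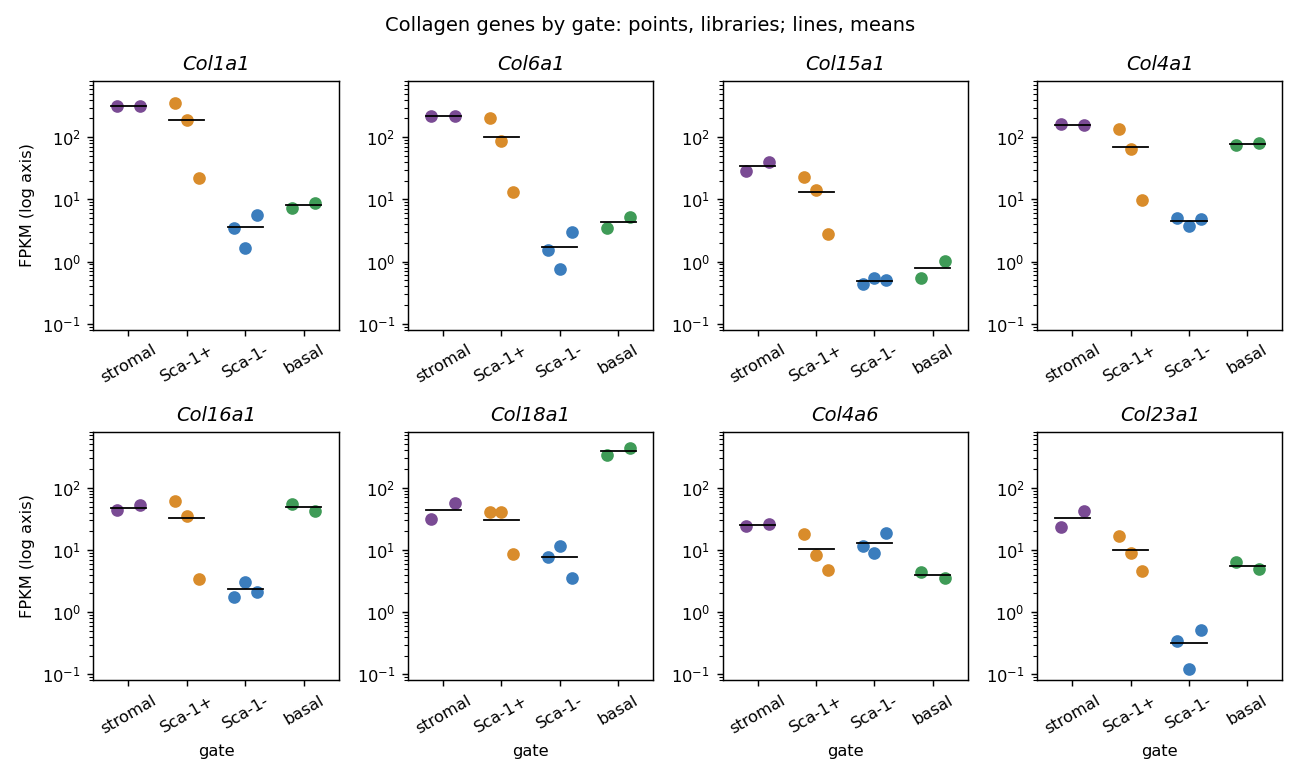
Points give the FPKM of 8 collagen genes in each library by gate on a log axis, and lines give the gate's mean. Col18a1 is the 1 gene of the 8 whose basal points lie above all others, Col4a1 and Col16a1 are high in both stromal and basal gates, and the orange Sca-1+ luminal points spread widely in most panels.

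Col18a1 (chr10:77052178-77166548, minus strand) encodes collagen XVIII, a heparan sulfate proteoglycan of epithelial and vascular basement membranes whose C-terminal part is released as endostatin. Its level was 341 and 433 FPKM in basal libraries, 31.5 and 57.2 in stromal, 40.7, 40.3 and 8.48 in Sca-1+ luminal and 7.79, 11.6 and 3.53 in Sca-1- luminal libraries. Both basal libraries lay above all 8 others, and the next highest value was 57.2 FPKM in stromal replicate 2. The basal excess was 5.60 ± 0.65 (SE) over Sca-1- luminal libraries (limma adjusted p = 0.000165) and 3.92 ± 0.65 over Sca-1+ luminal libraries (limma adjusted p = 0.00393), and both calls held without any 1 of the 10 libraries. Stromal minus basal was -3.15 ± 0.71 (limma adjusted p = 0.0126), a call lost without basal replicate 1, basal replicate 2 or stromal replicate 1 (limma adjusted p = 0.0592 to 0.0875). When replicate 3 alone stood for the Sca-1+ luminal gate, the basal excess over that gate was 5.34 (limma adjusted p = 0.000972).

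Col18a1 is transcribed from a pair of distant start sites, and the table lists a transcript for each. The transcript from the upstream start (5044 nt) was listed with all of the gene's FPKM in basal libraries, at 340.8 and 433 FPKM, with the transcript from the downstream start (5628 nt) listed at 0 in both. The downstream transcript was above 0 in only 3 libraries, at 4.39 FPKM in stromal replicate 1, 6.89 in Sca-1+ luminal replicate 1 and 0.446 in Sca-1- luminal replicate 3, or 13.9%, 16.9% and 12.6% of the gene. In each of those gates the other libraries listed it at 0, so its level varied within a gate. These values are Cufflinks' division of reads between overlapping transcripts, and use of the start sites was not measured. Both windows are shown because the transcripts differ in their start. The upstream window holds 3 GC boxes close together and 1 CCAAT box, and the downstream window holds none of the 3 motifs.
Col18a1 upstream start, chr10:77166481-77166780, minus strand: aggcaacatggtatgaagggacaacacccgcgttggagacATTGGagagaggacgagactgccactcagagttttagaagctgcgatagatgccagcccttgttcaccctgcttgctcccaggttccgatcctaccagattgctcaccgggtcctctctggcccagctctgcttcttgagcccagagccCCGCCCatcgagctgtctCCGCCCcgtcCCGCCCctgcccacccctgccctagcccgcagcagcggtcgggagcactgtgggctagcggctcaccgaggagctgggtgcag
Col18a1 downstream start, chr10:77113656-77113955, minus strand: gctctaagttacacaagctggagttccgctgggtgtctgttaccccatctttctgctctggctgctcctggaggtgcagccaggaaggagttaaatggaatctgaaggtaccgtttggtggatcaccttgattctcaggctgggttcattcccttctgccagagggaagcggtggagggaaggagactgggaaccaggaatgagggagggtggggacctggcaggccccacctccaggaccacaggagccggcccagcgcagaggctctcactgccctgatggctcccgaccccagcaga

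Col4a1 (chr8:11198423-11312826, minus strand) and Col4a2 (chr8:11312805-11449287, plus strand) encode the chains of the collagen IV trimer found in nearly all basement membranes. Col4a1 stood at 165 and 154 FPKM in stromal, 75.2 and 80.7 in basal, 136, 64.0 and 9.80 in Sca-1+ luminal and 4.97, 3.79 and 4.75 in Sca-1- luminal libraries. Col4a2 stood at 56.4 and 61.7 FPKM in stromal, 24.1 and 30.2 in basal, 44.3, 28.0 and 3.49 in Sca-1+ luminal and 2.60, 1.49 and 2.50 in Sca-1- luminal libraries. For both genes the stromal libraries were above the basal ones and the basal above the Sca-1- luminal ones, with no overlap, and the Sca-1+ luminal libraries spanned the basal level. In the fit of all gates the stromal minus basal difference was not called, at 1.02 ± 0.89 (SE) for Col4a1 (limma adjusted p = 0.473) and 1.10 ± 0.84 for Col4a2 (limma adjusted p = 0.410). Both were called, with the same differences, when only these gates were fitted (limma adjusted p = 0.0206 and 0.0220) and without Sca-1+ luminal replicate 3 (0.0415 and 0.0184). Basal exceeded Sca-1- luminal libraries by 3.85 ± 0.81 for Col4a1 (limma adjusted p = 0.00385) and by 3.15 ± 0.77 for Col4a2 (limma adjusted p = 0.00844), the latter lost without basal replicate 2 (limma adjusted p = 0.0598).

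The pair lies head to head, and in the annotation the start sites cross, so that the first 22 bases of each gene are shared on opposite strands. The ratio of Col4a1 to Col4a2 was 1.90 to 3.12 in all 10 libraries, while Col4a1 itself ran from 3.79 to 165.0 FPKM. The RefSeq windows of both genes share 78 bases, printed here on the plus strand because they hold both starts. They contain 1 GC box.
Col4a1 and Col4a2, chr8:11312777-11312854, plus strand: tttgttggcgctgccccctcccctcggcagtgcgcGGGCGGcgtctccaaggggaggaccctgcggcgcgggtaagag

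Col4a3 and Col4a4, which with Col4a5 form the collagen IV network best known from kidney and lung, are also a head to head pair, with 71 bases between their starts on chromosome 1. Col4a3 stood at 14.9 and 22.2 FPKM in stromal, 18.7, 10.1 and 0.998 in Sca-1+ luminal and 5.14 and 3.43 in basal libraries, and every Sca-1- luminal library listed it at 0. Col4a4 was lower, at 0.0171 to 8.47 FPKM over the 10 libraries, and Col4a3 stood at 1.94 to 3.65 times its level in the 7 libraries where Col4a3 was above 0. Stromal and basal libraries did not overlap for either gene, but neither was called between them in the fit of all gates (limma adjusted p = 0.140 for Col4a3 and 0.0635 for Col4a4). Both were called when only these gates were fitted (0.0190 and 0.0272) and without Sca-1+ luminal replicate 3 (0.00212 and 0.00120), and Col4a4 also without replicate 1 of that gate (0.0452). Col4a3 was called higher in basal than in Sca-1- luminal libraries (limma adjusted p = 0.0272), and in 5 of the 10 fits without 1 library (those without either basal or any Sca-1- luminal library) it was not, at limma adjusted p = 0.0593 to 0.145, nor with no filter on low values (0.0637).

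Col4a5 and Col4a6 encode the chains of a further collagen IV network, known from the basement membranes of smooth muscle and some epithelia. Col4a5 (chrX:141475385-141689234, plus strand) stood at 39.6 and 36.5 FPKM in stromal, 34.4, 12.1 and 4.87 in Sca-1+ luminal, 1.58, 1.04 and 1.99 in Sca-1- luminal and 3.27 and 2.99 in basal libraries. Col4a6 (chrX:141165403-141474076, minus strand) stood at 24.0 and 26.4 FPKM in stromal, 18.2, 8.31 and 4.80 in Sca-1+ luminal, 11.6, 8.78 and 18.9 in Sca-1- luminal and 4.42 and 3.51 in basal libraries. Both were highest in stromal libraries, but Col4a5 was lowest in Sca-1- luminal libraries and Col4a6 lowest in basal ones. Col4a6 was lower in basal libraries when set against the Sca-1- luminal gate (-1.45 ± 0.46, SE, limma adjusted p = 0.0281), and the call was lost without either basal library, without replicate 1 or 3 of the Sca-1- luminal gate (limma adjusted p = 0.0564 to 0.144) and with no filter on low values (0.0570). It was the highest collagen of Sca-1- luminal replicates 1 and 3, and was not called against stromal libraries (0.96 ± 0.46, limma adjusted p = 0.109) or Sca-1+ luminal ones (-0.42 ± 0.41, limma adjusted p = 0.451). Its level in Sca-1- luminal libraries was called lower than in stromal ones when only these gates were fitted (limma adjusted p = 0.0480) and without Sca-1+ luminal replicate 1 or 3 (0.0370 and 0.0469). Stromal exceeded basal libraries by 3.24 ± 0.64 for Col4a5 (limma adjusted p = 0.00705, and 0.0502 without basal replicate 2) and by 2.40 ± 0.51 for Col4a6 (limma adjusted p = 0.00920, and 0.0600 to 0.0663 without basal or stromal replicate 2).

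The ratio of Col4a5 to Col4a6 differed by gate. It was 1.65 and 1.38 in stromal libraries, 1.90, 1.46 and 1.01 in Sca-1+ luminal libraries, 0.739 and 0.853 in basal libraries, and 0.136, 0.118 and 0.105 in Sca-1- luminal libraries. The ratio was above 1 in every stromal and Sca-1+ luminal library and below 1 in every basal and Sca-1- luminal one, and no 2 of these ranges overlapped except those of the stromal and Sca-1+ luminal gates. All 3 transcripts given to Col4a5 were matched by overlap of their positions rather than by a shared end, so its level rests on that step. The starts of this pair lie 1308 bases apart, wider than the other pairs, and the RefSeq windows are shown because the ratio of the pair is not constant. The Col4a5 window holds 1 GC box and 1 CCAAT box, and the Col4a6 window 1 GC box.
Col4a5, chrX:141475169-141475468, plus strand: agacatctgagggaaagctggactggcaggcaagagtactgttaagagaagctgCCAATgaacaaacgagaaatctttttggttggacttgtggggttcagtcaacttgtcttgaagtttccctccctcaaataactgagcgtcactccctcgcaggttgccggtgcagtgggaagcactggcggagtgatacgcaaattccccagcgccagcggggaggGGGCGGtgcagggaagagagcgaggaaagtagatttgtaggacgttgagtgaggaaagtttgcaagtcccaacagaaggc
Col4a6, chrX:141474027-141474326, minus strand: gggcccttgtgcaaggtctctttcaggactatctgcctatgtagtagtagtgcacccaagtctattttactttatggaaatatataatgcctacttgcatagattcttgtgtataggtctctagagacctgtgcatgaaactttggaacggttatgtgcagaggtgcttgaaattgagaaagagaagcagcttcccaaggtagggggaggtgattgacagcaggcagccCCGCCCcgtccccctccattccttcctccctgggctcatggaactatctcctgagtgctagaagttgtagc

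**Figure D5:**
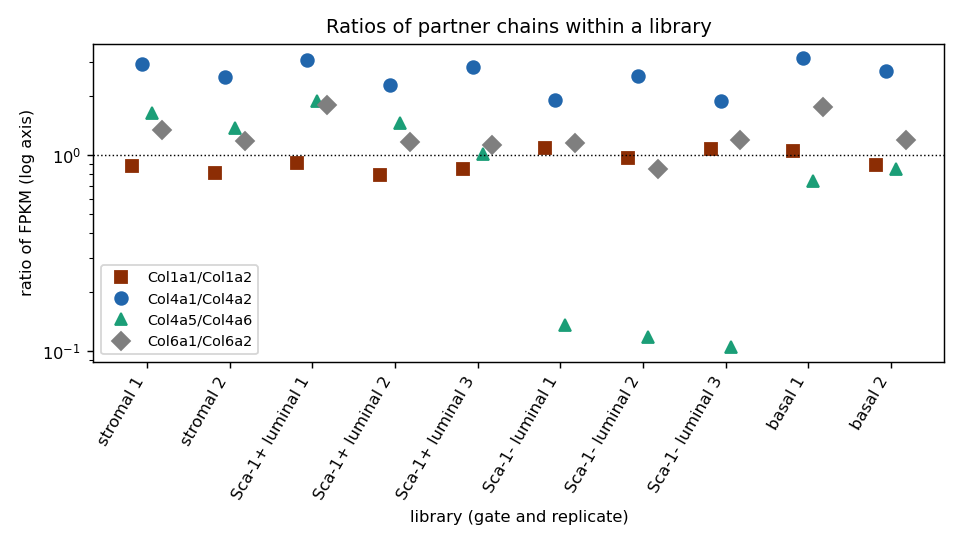
Points give the ratio of FPKM between 2 partner chains in each library on a log axis, with the dotted line at a ratio of 1. Col1a1/Col1a2 stays between 0.797 and 1.08 and Col4a1/Col4a2 between 1.90 and 3.12, while Col4a5/Col4a6 falls to between 0.105 and 0.136 in the Sca-1- luminal libraries.

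Col15a1 encodes collagen XV, the relative of collagen XVIII that links basement membranes to the fibrils beneath. It stood at 28.8 and 40.6 FPKM in stromal, 22.7, 14.4 and 2.73 in Sca-1+ luminal, 0.436, 0.543 and 0.495 in Sca-1- luminal and 0.541 and 1.04 in basal libraries. Unlike Col18a1 it was near 1 FPKM or lower in basal libraries, and the ratio of Col18a1 to Col15a1 was 629.6 and 418 there against 1.09 and 1.41 in stromal libraries. Against basal libraries the stromal excess was 4.31 ± 0.69 (SE, limma adjusted p = 0.00283), and the call held in all 10 fits without 1 library.

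Among FACITs, Col16a1 was high in both stromal and basal libraries, and Col14a1 was high in stromal ones. Col12a1 lay above the Sca-1- luminal level in both, at lower values than Col16a1. Col16a1 (collagen XVI, found near basement membranes and in fibrils) stood at 43.3 and 52.2 FPKM in stromal, 55.8 and 42.8 in basal, 60.6, 35.4 and 3.43 in Sca-1+ luminal and 1.78, 3.09 and 2.14 in Sca-1- luminal libraries. Stromal and basal libraries overlapped, and all of them lay above Sca-1+ luminal replicate 3 and the Sca-1- luminal libraries. Their difference was -0.04 ± 0.95 (SE, limma adjusted p = 0.995), and it was 0.15 and 0.09 without basal or stromal replicate 1. Basal exceeded Sca-1- luminal libraries by 3.92 ± 0.87 (limma adjusted p = 0.00507), in all 10 fits without 1 library.

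Col12a1, whose product coats collagen I fibrils, stood at 11.8 and 10.1 FPKM in stromal, 7.96 and 5.83 in basal, 25.9, 12.3 and 0.719 in Sca-1+ luminal and 0.337, 0.445 and 0.218 in Sca-1- luminal libraries. Its basal and stromal libraries did not overlap but the difference of 0.60 ± 0.97 (SE) was not called (limma adjusted p = 0.733). Part of the basal level, 4.41 and 2.58 FPKM, was a 3181 nt transcript. It was listed at 0 in stromal and Sca-1+ luminal libraries. The 11719 nt transcript stood at 3.55 and 3.25 FPKM in basal and 11.8 and 10.1 in stromal libraries. Col12a1 was not tested by transcript. Its excess in basal over Sca-1- luminal libraries, 2.56 ± 0.89 (limma adjusted p = 0.0392), was kept in only 3 of the 10 fits without 1 library, and was lost without each basal, stromal and Sca-1- luminal library (limma adjusted p = 0.0590 to 0.170) and with no filter on low values (0.0859).

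Col14a1, a FACIT of fibroblasts, stood at 19.1 and 5.64 FPKM in stromal, 14.0, 2.77 and 0.660 in Sca-1+ luminal, 0.0987, 0.0202 and 0.222 in Sca-1- luminal and 0.404 and 0.339 in basal libraries. A 2177 nt transcript within Col14a1, at up to 11.9 FPKM, was given no gene by position and is not in these values. The stromal libraries of Col14a1 differed from each other by over 3 times, and both lay above all basal and Sca-1- luminal ones. The excess over basal libraries, 3.08 ± 0.85 (SE, limma adjusted p = 0.0277), was lost without basal replicate 1, basal replicate 2 or stromal replicate 1 (limma adjusted p = 0.112 to 0.183) and with no filter on low values (0.0642). Col20a1, a FACIT of which less is known, was the 1 collagen called lower in stromal libraries when these were set against the Sca-1- luminal gate. Its levels were low, 0.228 and 0.681 FPKM in stromal and 2.47, 0.791 and 3.29 in Sca-1- luminal libraries, and the difference was -1.06 ± 0.34 (limma adjusted p = 0.0271). That call was lost without stromal replicate 1 or Sca-1- luminal replicate 1 or 3 (limma adjusted p = 0.0755 to 0.184), and when only these gates were fitted (0.0581).

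Collagen VI, which forms beaded filaments around cells, was the most abundant of the remaining collagens. Col6a1 (chr10:76708792-76726168, minus strand) stood at 218 and 221 FPKM in stromal, 207, 87.3 and 13.2 in Sca-1+ luminal, 1.54, 0.746 and 2.93 in Sca-1- luminal and 3.49 and 5.11 in basal libraries. Its neighbour Col6a2 (chr10:76595762-76623630, minus strand) stood at 163 and 187 FPKM in stromal, 115, 74.6 and 11.7 in Sca-1+ luminal, 1.33, 0.882 and 2.46 in Sca-1- luminal and 1.98 and 4.25 in basal libraries. The ratio of the 2 ran from 0.846 to 1.8 over the 10 libraries, and both had stromal libraries above every basal and Sca-1- luminal one. Stromal exceeded basal libraries by 5.40 ± 0.96 (SE) for Col6a1 (limma adjusted p = 0.00449) and 5.47 ± 0.84 for Col6a2 (limma adjusted p = 0.00251).

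Col6a3, the longest chain of the classical collagen VI trimer, stood at 45.2 and 28.2 FPKM in stromal, 61.2, 19.9 and 2.21 in Sca-1+ luminal, 2.43, 1.75 and 1.51 in Sca-1- luminal and 0.776 and 0.989 in basal libraries. Its basal libraries lay below the Sca-1- luminal ones, a difference that was not called (-0.61 ± 0.94, SE, limma adjusted p = 0.637). The ratio of Col6a3 to Col6a1 was 0.127 to 0.296 in stromal, Sca-1+ luminal and basal libraries and 0.513 to 2.35 in Sca-1- luminal libraries. Stromal exceeded basal libraries by 4.29 ± 1.03 (limma adjusted p = 0.0155), a call lost without any 1 of the 4 basal and stromal libraries (0.0635 to 0.0921).

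The alternative collagen VI chains Col6a4, Col6a5 and Col6a6 lie side by side on chromosome 9, and 1 of the 3 was abundant. Col6a5 (chr9:105856078-105960643, minus strand) stood at 26.1 and 8.01 FPKM in stromal, 18.5, 5.40 and 0.182 in Sca-1+ luminal, 0.00880, 0.107 and 0.157 in Sca-1- luminal and 0.145 and 0.183 in basal libraries. Its stromal libraries differed by over 3 times from each other, and no Sca-1- luminal or basal library reached 0.2 FPKM. The stromal excess over basal libraries, 3.75 ± 1.02 (SE, limma adjusted p = 0.0266), was lost without any 1 of those 4 libraries (0.0557 to 0.168). Col6a6 reached 2.74 FPKM and Col6a4 reached 1.76 FPKM. Neither was called between stromal and basal libraries.

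The transmembrane collagens Col13a1 and Col23a1, which act at cell contacts with the matrix, were both highest in stromal libraries. Col23a1 (chr11:51289920-51583918, plus strand) stood at 23.5 and 42.3 FPKM in stromal, 16.8, 8.90 and 4.61 in Sca-1+ luminal libraries, 6.35 and 4.89 in basal libraries and 0.337, 0.123 and 0.508 in Sca-1- luminal libraries. It was the 1 collagen called between stromal and Sca-1+ luminal libraries (1.71 ± 0.45, SE, limma adjusted p = 0.0327), and also higher in basal than in Sca-1- luminal libraries by 2.33 ± 0.45 (limma adjusted p = 0.00240). The call against Sca-1+ luminal libraries was lost without any 1 of the basal and stromal libraries, Sca-1- luminal replicate 1 and Sca-1+ luminal replicates 2 and 3 (limma adjusted p = 0.0513 to 0.207), and with no filter on low values (0.0686). The stromal excess over basal libraries was 2.31 ± 0.49 (limma adjusted p = 0.00935) and was lost without basal or stromal replicate 2 (0.0705 to 0.0793). Col13a1 stood at 10.5 and 20.4 FPKM in stromal, 7.18, 6.88 and 0.613 in Sca-1+ luminal, 0.146, 0.197 and 0.374 in Sca-1- luminal and 0.303 and 0.459 in basal libraries. No basal or Sca-1- luminal library reached 0.5 FPKM of it, and stromal exceeded basal libraries by 3.51 ± 0.68 (limma adjusted p = 0.00636, and 0.0569 without stromal replicate 2).

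Col7a1, the anchoring fibril collagen that ties epithelial basement membranes to the stroma, ranged from 0.599 to 11.7 FPKM. It stood at 7.42 and 5.74 FPKM in basal and 7.45 and 11.7 in stromal libraries, which did not overlap but lay close together and were not called apart (0.46 ± 0.61, SE, limma adjusted p = 0.661). Against Sca-1- luminal libraries, at 1.22, 0.979 and 0.988 FPKM, the basal excess was 1.87 ± 0.55 (limma adjusted p = 0.0203), lost without either basal library or the Sca-1- luminal replicate 3 (limma adjusted p = 0.0529 to 0.117). The network-forming Col8a1 and Col8a2, at up to 10.3 and 17.2 FPKM, were highest in Sca-1+ luminal replicate 1, and stromal exceeded basal libraries by 2.79 ± 0.83 for Col8a2 (limma adjusted p = 0.0369). That call was kept in 3 of the 10 fits without 1 library, and was lost without each basal, stromal and Sca-1- luminal library (limma adjusted p = 0.0557 to 0.153) and with no filter on low values (0.0805).

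The Sca-1+ luminal gate held collagen levels from near stromal to far below. Replicate 1 was the highest and replicate 3 the lowest of the 3 libraries for 27 and 29 of the 30 tested collagens. The ratio of replicate 1 to replicate 3 had a median of 15.0 over the 30 and ran from 0.982 to 105. The summed fibroblast genes, by level mostly Gsn and Dcn, moved with it, at 12.9 times, and the summed collagens at 13.4 times. It was under 5 for 5 collagens, which were Col20a1, Col27a1, Col23a1 (3.64), Col4a6 (3.78) and Col18a1 (4.80). In replicate 1, 17 of the 30 reached the lower of the stromal libraries, and in replicate 3 only 1 did. None of these counts was made over all genes, so they have no background share beside them. The 6 basal epithelial genes summed to 664, 1150 and 3331 FPKM in replicates 1, 2 and 3, most of it Krt15 at 571, 935 and 3225, while Krt14 stood at 57.4, 139 and 9.40 and Krt5 at 5.92, 20.0 and 7.46. Smooth muscle genes summed to 331, 433 and 34.1 FPKM, pericyte genes to 44.5, 30.2 and 7.06 and endothelial genes to 39.4, 28.8 and 6.30. Luminal epithelial genes summed to 3885, 9289 and 8227 FPKM. The part of these genes' cells in the collagen levels was not tested.

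Between Sca-1+ and Sca-1- luminal libraries, 23 of the 30 tested collagens were higher in Sca-1+ libraries and 0 lower, where the whole table gave 35% called, 21.8% higher and 13.2% lower. All 11 tested fibroblast genes were higher as well. The 23 were 6 of 7 fibrillar, 7 of 8 basement membrane, 3 of 4 FACIT and 7 of 11 other collagens, such as Col1a1 at 4.77 ± 0.82 (SE, limma adjusted p = 0.00310), Col4a1 at 3.06 ± 0.72 (0.0116) and Col23a1 at 2.92 ± 0.40 (0.00115). With replicate 3 as the sole Sca-1+ library 10 were higher and 0 lower, beside 1300 and 731 of all genes, and these were Col1a1, Col1a2, Col3a1, Col5a2, Col6a1, Col6a2, Col4a1, Col4a5, Col15a1 and Col23a1. Replicate 3 lay above all 3 Sca-1- luminal libraries for 24 of the 30, with Col1a1 at 22.4 against at most 5.68 FPKM and Col23a1 at 4.61 against at most 0.508. That count was not made over all genes, and 15 of the 30 had no Sca-1- luminal library at 1 FPKM. Omitting Sca-1+ luminal replicate 1 or 2 brought the calls to 13 and 11, and omitting replicate 1, 2 or 3 of the Sca-1- luminal gate brought them to 14, 14 and 13, of which 1 was lower without Sca-1- luminal replicate 2. Fitting only these gates gave 12 and no filter on low values 13. Of all genes, 2707 were higher and 1644 lower in the main fit. These counts were 2061 and 1182 without Sca-1+ luminal replicate 1, and 1692 and 1029 without replicate 2. Without Sca-1- luminal replicate 1, 2 or 3 the higher genes were 1935, 1960 and 1688, and the lower ones 1125, 1597 and 1007. Col18a1, at 1.68 ± 0.58 (limma adjusted p = 0.0495), kept its call in 2 of 18 alternatives, those without Sca-1+ luminal replicate 3 and with transcripts lying within a gene counted.

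Scaling moved all genes in this comparison. Median-of-ratios scaling and quantile normalization shifted the median difference of all genes by -0.19 and -0.28, and the share of called genes that were higher in Sca-1+ libraries went from 62.2% to 46.0% and 40.4%. The collagens called were then 18 higher and 0 lower, and 18 higher and 1 lower (Col20a1).

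Between stromal and Sca-1+ luminal libraries 1 of the 30, Col23a1, was called, below the 13.3% of all genes (1.79% higher and 11.5% lower in stromal libraries). The median difference was 1.40 for the collagens and -0.16 for all genes, and 13.4% of all called genes were higher in stromal libraries, or 32.9% and 37.5% after median-of-ratios scaling and quantile normalization, which moved the median by 0.26 and 0.25. The number called depended on which Sca-1+ luminal library was used: it was 16 without replicate 1, 0 without replicate 2 or 3, and 27, all higher in stromal libraries, with replicate 3 alone, where 1800 of all genes were higher and 2036 lower. It was also 0 without either basal, either stromal or Sca-1- luminal replicate 1, when only these gates were fitted, and with a pseudocount of 0.1 FPKM. Of all genes, 1076 were higher and 1945 lower in stromal libraries without Sca-1+ luminal replicate 1. The counts were 140 and 934 without replicate 2, and 198 and 1172 without replicate 3. At an adjusted p over the threshold in the main test, Col1a1 stood at 1.43 ± 0.92 (SE, limma adjusted p = 0.321).

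Between basal and Sca-1+ luminal libraries Col18a1 was higher in basal libraries, and 8 of the 30 were lower, where the whole table gave 19.6% called, 4.36% higher and 15.3% lower in basal libraries. The 8 were Col1a1, Col1a2, Col3a1, Col5a2, Col15a1, Col6a1, Col6a2 and Col6a3, such as Col1a2 at -3.90 ± 0.91 (SE, limma adjusted p = 0.0170) and Col6a2 at -3.60 ± 0.77 (0.0116). Fibroblast genes were lower with them, 9 of 11 tested. Without either basal library, which left 1 in that gate, fewer collagens and fewer of all genes were called lower. Without Sca-1+ luminal replicate 3 the lower collagens were 21, and without replicate 2 1. Fitting only these gates or using no filter left 0 and 3. Of all genes, 1898 were lower in the main fit, 2792 without Sca-1+ luminal replicate 3 and 1108 without replicate 2. Fitting only these gates or using no filter gave 953 and 1456. With replicate 3 alone, where 566 of all genes were higher and 1436 lower in basal libraries, 7 collagens were higher in basal libraries (Col18a1, Col4a1, Col4a2, Col4a3, Col16a1, Col12a1 and Col7a1) and 2 were lower (Col5a2 and Col6a2). Col4a1 was not called and its sign turned: it was 0.78 ± 0.81 (limma adjusted p = 0.518) over all 3 Sca-1+ libraries and -0.26 without replicate 3. Over all tested genes, 22.2% of those called were higher in basal libraries, or 46.1% and 52.8% after median-of-ratios scaling and quantile normalization, which moved the median of all genes by 0.30 and 0.38.

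Most enzymes and chaperones that make collagen had more RNA in stromal libraries compared with Sca-1- luminal ones, and 31 of 34 of them were tested. Between stromal and basal libraries 17 were higher in stromal libraries and 0 lower. The largest differences were those of Pcolce, which enhances the removal of the C-propeptide, and Lox, the lysyl oxidase that starts crosslinking. Pcolce stood at 199 and 252 FPKM in stromal, 283, 178 and 22.2 in Sca-1+ luminal, 2.06, 1.44 and 2.98 in Sca-1- luminal and 2.78 and 5.30 in basal libraries, and Lox at 194 and 129, 245, 84.5 and 6.14, 1.52, 0.334 and 1.66 and 2.34 and 2.76 FPKM. The stromal excess over basal libraries was 5.53 ± 0.93 (SE) for Pcolce (limma adjusted p = 0.00352) and 5.49 ± 1.25 for Lox (limma adjusted p = 0.0126), the latter lost without any 1 of the 4 basal and stromal libraries (0.0596 to 0.0753). Of all genes 13.4% were higher and 9.04% lower in this comparison. Against Sca-1- luminal libraries, 25 of 31 were higher and 3 lower in stromal libraries (25.3% and 27.3% of all genes) and Sca-1+ luminal libraries had 15 higher and 2 lower (21.8% and 13.2%). The other counts were at or below the share of all genes called: 8 of 31 between basal and Sca-1- luminal libraries (25.8% against 46%), 6 of 31 between basal and Sca-1+ luminal libraries (19.4% against 19.6%) and 1 of 31, Loxl2, between stromal and Sca-1+ luminal libraries (3.23% against 13.3%).

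Part of this list was high in Sca-1- luminal libraries, where collagens were lowest. P4hb, the beta subunit of prolyl 4-hydroxylase and a general disulfide isomerase, stood at 939, 733 and 887 FPKM there against 311 and 397 in stromal and 202 and 218 in basal libraries. Ppib, cyclophilin B of the prolyl 3-hydroxylation complex and a general folding catalyst, stood at 672, 771 and 721 FPKM against 163 and 257 and 117 and 156. Basal minus Sca-1- luminal was -2.01 ± 0.31 (SE) for P4hb (limma adjusted p = 0.000807) and -2.41 ± 0.30 for Ppib (limma adjusted p = 0.000230). By contrast Serpinh1, the collagen chaperone HSP47, stood at 59.3 and 58.4 FPKM in basal and 5.38, 5.09 and 8.51 in Sca-1- luminal libraries (3.06 ± 0.80, limma adjusted p = 0.0117, and 0.0632 to 0.0648 without either basal library), with 330.2 and 488 FPKM in stromal libraries.

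Collagen receptors split by gate, with 7 of 10 tested. Ddr2, a receptor tyrosine kinase for fibrillar collagens, stood at 42.7 and 31.0 FPKM in stromal, 31.2, 13.7 and 1.59 in Sca-1+ luminal, 0.386, 0.297 and 0.391 in Sca-1- luminal and 0.660 and 0.939 in basal libraries. Itga2, the alpha2 chain of a collagen-binding integrin, stood at 64.5 and 100.2 FPKM in basal, 3.90, 15.0 and 20.4 in Sca-1+ luminal, 2.79 and 4.62 in stromal and 1.32, 2.47 and 0.194 in Sca-1- luminal libraries. Within the Sca-1+ luminal gate Itga2 was lowest and Ddr2 highest in replicate 1, the library with the most collagen. Between stromal and basal libraries 3 receptors were higher, such as Ddr2 (4.38 ± 0.88, SE, limma adjusted p = 0.00758) and the endocytic receptor Mrc2 (3.14 ± 0.75, 0.0151), and 2 were lower, Itga2 (-4.14 ± 0.69, 0.00327) and the epithelial kinase Ddr1 (-1.49 ± 0.34, 0.0120). The call of Itga2 held in all 10 fits without 1 library, and those of Ddr2, Mrc2 and Ddr1 were lost without basal or stromal replicate 1 (limma adjusted p = 0.0528 to 0.0906), that of Ddr1 also without basal replicate 2 and that of Mrc2 without either replicate 2. Of all genes 22.4% were called in this comparison. Of the 7, basal libraries had 3 higher and 0 lower than Sca-1- luminal libraries, a share called of 42.9% near the 46% of all genes, with Itga2 at 5.26 ± 0.63 (limma adjusted p = 0.000186), and Sca-1+ luminal libraries had 4 higher and 0 lower than Sca-1- luminal ones, where 35% of all genes were called.

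The 13 collagens not tested were low throughout. Of these, 10 stayed below 1 FPKM in every library, at no more than 0.875 FPKM: Col2a1, Col11a2 and Col24a1 of the fibrillar class, Col9a1, Col19a1 and Col22a1 of the FACITs, and Col10a1, Col25a1, Col26a1 and Col28a1 of the others. Col2a1 and Col10a1, the collagens of cartilage and of its growth plate, were at most 0.0860 and 0.0431 FPKM. The remaining 3 reached 1 FPKM in 1 library each, Col11a1 at 1.37, Col9a2 at 1.10 and Col9a3 at 1.23 FPKM. Just inside the limit lay Col27a1, at 1 FPKM or more in 2 libraries, with a highest value of 1.28 FPKM. The 4503 nt transcript within it was not counted.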

How the data were processed

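RNA of sorted cells was amplified with random and poly d(T) primers, per the labels' protocols. The submitters' processing notes name bcl2fastq 1.8.3, TopHat and Cufflinks and the mm10 build, without versions of the last programs. The authors deposited FPKM and mean read coverage per transcript for all 10 libraries, with no gene names, and only FPKM was compared. Of 63241 transcripts, 53061 (83.9%) were given a gene by position in GENCODE and RefSeq annotations of mm10, by both ends, 1 end or an overlap of at least 0.5 (intersection over union). FPKM was summed per gene without transcripts shorter than 300 nt. That sum, and 7 genes left out for failed estimates, none of them a collagen, could change levels. Low values lay within 0.05 of whole fragments in 92.4% to 94.3% of cases, from which depth was read.

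Genes that reached 1 FPKM in 2 libraries or more were compared with limma 3.58.1 (R 4.3.3) on log2(FPKM + 1), with 1 mean per gate, a trended prior and 6 residual degrees of freedom, after the code was tested on simulated data. Adjusted p-values cover all genes tested and are the limma values wherever one is printed. Tables and plots were made with Python 3.11.15, pandas 2.3.3 and matplotlib 3.10.9. Values in every library were printed for members with a gate mean of 10 FPKM or more and for members a result turned on, and of each list of other genes for those with the largest differences. Alternatives were another pseudocount, no filter, median-of-ratios scaling, quantile normalization, fits of only the gates compared, stricter matching and leaving out each library. Groups came from the labels' gates. The members, lists and tests were chosen with earlier results of these data known.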

Additional observations from a re-analysis of the deposited data

How the results depend on the processing

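No paired analysis was possible because the labels carry no replicate numbers, and the numbers used here only name libraries. Over 103 results for single genes, 1757 alternative values were computed, of which 1569 kept direction and side of the threshold, 154 lost the call, 31 gained it and 3 changed sign. Those 3 were not called: Col16a1 between stromal and basal libraries was 0.15 without basal replicate 1 and 0.09 without stromal replicate 1, in a range of -0.23 to 0.15 without 1 library each, and Col4a1 between basal and Sca-1+ luminal libraries was -0.26 without Sca-1+ luminal replicate 3, in a range of -0.26 to 1.57.

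Collagens called between stromal and Sca-1+ luminal libraries numbered 1, and 0 with a pseudocount of 0.1 FPKM, 2 after median-of-ratios scaling, 2 after quantile normalization, 0 when only these gates were fitted and 27 with Sca-1+ luminal replicate 3 alone. Genes called there numbered 1657, against 613 when only these gates were fitted and 3836 with replicate 3 alone. Between basal and Sca-1+ luminal libraries 9 collagens were called, against 4 with no filter and 1 when only these gates were fitted, and 2440 genes, against 1258 when only these gates were fitted. Between Sca-1+ and Sca-1- luminal libraries 23 collagens were called, against 13 with no filter, 12 when only these gates were fitted and 10 with replicate 3 alone, and 4351 genes, against 2031 with replicate 3 alone. The use of replicate 3 alone, and the counting of transcripts lying within a gene, were chosen after seeing the data, and a lone library is assumed to vary like the other gates. The cause of these changes was not tested.

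Without 1 library each, the collagens called ranged from 8 to 23 between stromal and basal libraries, 20 to 30 between stromal and Sca-1- luminal, 0 to 16 between stromal and Sca-1+ luminal, 4 to 12 between basal and Sca-1- luminal, 1 to 22 between basal and Sca-1+ luminal and 11 to 26 between Sca-1+ and Sca-1- luminal libraries. The genes called ranged, in the same order, from 1178 to 3562, 4384 to 7067, 382 to 3021, 3744 to 6390, 659 to 3555 and 2695 to 5203. Col1a1, Col15a1 and Col4a5 have no value when transcripts are matched by an end only, which left 27 collagens tested. Depth was estimated and not varied.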
